A study of Mus musculus with 7 samples.

Results

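The genes of the REST and CoREST repressor complex were compared between mouse embryonic stem cells (mESCs) and mouse embryonic fibroblasts (MEFs) in RNA-seq gene counts. The members were taken by symbol and comprised 10 of the 55484 genes listed: Rest, the 3 CoREST genes Rcor1, Rcor2 and Rcor3, Kdm1a, Hdac1, Hdac2, Sin3a, Hmg20b and Phf21a. REST is a zinc finger protein that binds the RE1 element and silences neuronal genes in cells that are not neurons. Through one end it recruits SIN3 proteins, which bring the histone deacetylases HDAC1 and HDAC2. Through the other end it recruits CoREST proteins, which join the same deacetylases to the histone demethylase KDM1A, also called LSD1. In pluripotent cells, REST and LSD1 are known as repressors of lineage genes.

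The data comprised 4 MEF and 3 mESC libraries, and no treatment, sex, age or passage is given for them. The methods give a C57/Bl6 background for all MEFs and mESCs, in the section on the open chromatin libraries. MEFs are a mixed culture of connective tissue cells grown from embryos, and mESCs are grown from the inner cells of the early embryo. For the open chromatin part of the study, the methods give a sort for THY1 in MEFs and for SSEA1 and EPCAM without THY1 in mESCs. Whether the cells of these RNA libraries were sorted in the same way is not given in the sources used here. The legends that use these libraries call them biological replicates and count 3 for each cell type, whereas the table holds 4 MEF columns, and all were used. Whether the replicates came from separate embryos, lines or cultures is not given in the sources used here, and p-values measure the spread between these libraries. The column names do not say which sample each count column is, and each library is named here by its total. The MEF libraries held 11441278, 9176467, 7312679 and 6528643 counts, and the mESC libraries 8193825, 8057985 and 7462710. Values below follow this order. CPM values are counts scaled to a common library size by edgeR's TMM method, and 3 counts in a library, the floor used here for counting error, correspond to between 0.262 and 0.460 CPM before that scaling.

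Both cell types carried the markers of their labels. The summed level of 9 pluripotency genes ran from 23.8 to 27.1 CPM in MEFs and from 2710 to 2900 CPM in mESCs, and that of 9 fibroblast genes from 20500 to 35600 CPM in MEFs and from 172 to 198 CPM in mESCs. All 8 tested pluripotency genes were higher in mESCs, all 9 fibroblast genes were lower, and Fut4 had too few counts to test. Of the 16580 genes with enough counts to test, 47.9% differed between the cell types, 22.8% being higher in mESCs and 25.0% lower (edgeR's quasi-likelihood test, Benjamini-Hochberg adjusted over all tested genes, threshold 0.05). Scaling by library totals alone moves the log2 fold change of all genes up by 0.28 and turns the share of calls that are higher in mESCs from 47.7% to 60.8%. For the members and the genes named by rule, calls that depend on this scaling are marked where they are given.

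Of the 10 complex genes, 8 differed between the cell types, where 47.9% of all tested genes did. Rest, Rcor2, Sin3a, Kdm1a and Hdac1 were higher in mESCs (5 of 10, against 22.8% of all tested genes), and Rcor3, Hmg20b and Hdac2 were lower (3 of 10, against 25.0%). Rcor1 and Phf21a did not pass the test. Without scaling beyond library totals 6 members passed, and Hmg20b and Hdac2 were no longer among them. No MEF library reached the range of the mESC libraries for the 8 genes that passed, where 52.1% of all tested genes had no overlap. The median fitted log2 fold change of the 10 genes was 0.31, against 0.04 for all genes tested. Against a fold change of 2, 4 members passed, where 24.1% of all tested genes did. These 4 were Rest, Rcor2 and Sin3a, higher in mESCs, and Rcor3, lower.

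**Figure D1:**
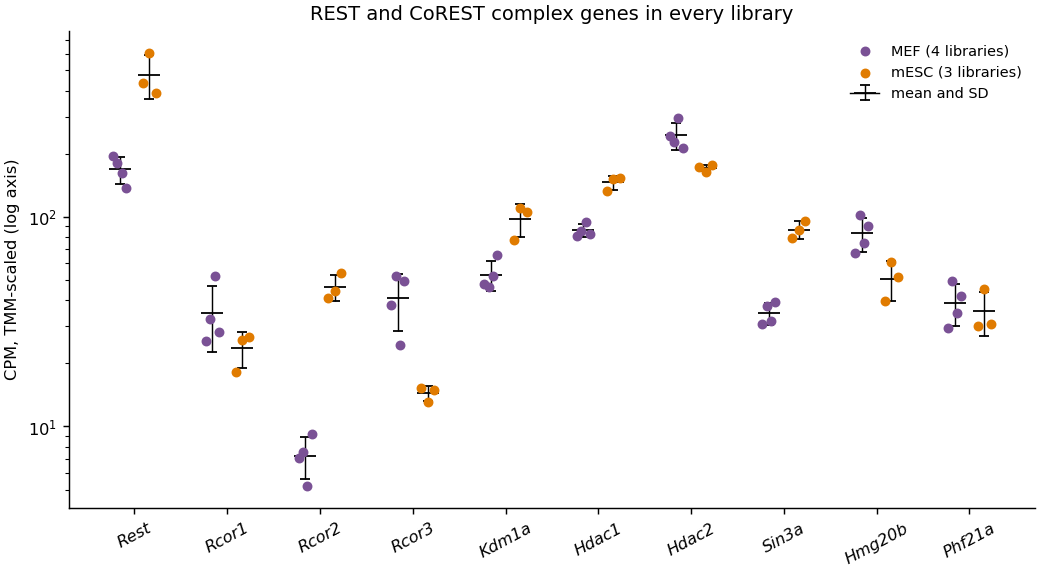
TMM-scaled CPM on a log axis of the 10 complex genes, with 1 point for each of 4 MEF and 3 mESC libraries and bars for the mean and SD. Levels are comparable between cell types for a gene and not between genes. Rest, Rcor2, Kdm1a, Hdac1 and Sin3a lie wholly higher in mESCs, while the points of Rcor1 and of Phf21a overlap.

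Rest, which encodes the DNA-binding protein of the complex (ENSMUSG00000029249, chr5:77265491-77286432 on GRCm38), had 2039, 1502, 1062 and 864 counts in MEFs and 4032, 5336 and 3312 in mESCs. As a level, this was 196, 180, 162 and 137 CPM in MEFs and 437, 606 and 391 CPM in mESCs, so that the lowest mESC library lay above the highest MEF library. The means were 169 ± 25.0 and 478 ± 113 CPM (SD, n = 4 and 3). The fitted difference was 1.50 ± 0.181 on the log2 scale (SE, 95% interval 1.10 to 1.90, edgeR adjusted p = 6.11e-05). In bulk libraries, a gene used by fewer cells and a gene with less RNA per cell cannot be told apart, which holds for every value here. Leaving out any 1 library kept the log2 fold change of Rest between 1.29 and 1.62.

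The CoREST scaffolds, which hold the demethylase and the deacetylases together, moved in different directions. Rcor2 (chr19:7267325-7275225) was at 7.10, 7.55, 5.18 and 9.22 CPM in MEFs and at 41.1, 44.5 and 53.7 CPM in mESCs. Its counts ran from 34 to 74 in MEFs and from 379 to 455 in mESCs, with a wide gap between the groups. Rcor2 had the highest log2 fold change of the 10 genes, 2.67 ± 0.233 (SE, 95% interval 2.16 to 3.19, edgeR adjusted p = 5.89e-06). Rcor3 (chr1:192098546-192138062) was at 37.9, 52.4, 24.5 and 49.3 CPM in MEFs and at 15.2, 13.1 and 14.9 CPM in mESCs. Here all MEF libraries were the higher ones, and the log2 fold change was -1.51 ± 0.270 (SE, 95% interval -2.11 to -0.92, edgeR adjusted p = 0.000915). Of the 50-base sequences of Rcor3, 7.56% also occur in other genes, most of them in the antisense gene Gm26879, which had 0 counts in every library. Another antisense gene, Gm10516, had 20, 2, 1 and 8 counts in MEFs and 1, 0 and 1 in mESCs. Rcor1 (chr12:111039351-111115901) was at 25.7, 32.7, 52.1 and 28.3 CPM in MEFs and at 18.2, 25.8 and 26.8 CPM in mESCs, and the groups overlapped. Its log2 fold change of -0.56 (95% interval -1.16 to 0.05) did not pass (edgeR adjusted p = 0.12), and an interval this wide leaves room for no difference as well as for a 2-fold one. The MEF library of 7312679 counts was the highest for Rcor1 and the lowest for both Rcor2 and Rcor3. Without it, the log2 fold change of Rcor1 was -0.30 (edgeR adjusted p = 0.323) and that of Rcor3 -1.70. Exons of Rcor1 overlap those of Gm48632 on the same strand, which had 59, 29, 25 and 18 counts in MEFs and 151, 27 and 48 in mESCs.

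**Figure D2:**
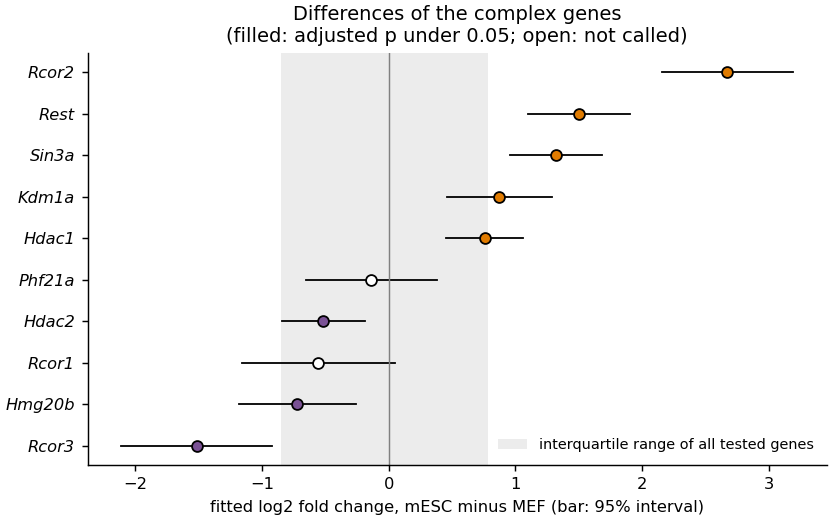
Fitted log2 fold change (mESC minus MEF) of each complex gene with its 95% interval, over 4 MEF and 3 mESC libraries; filled points passed edgeR's test at an adjusted p of 0.05, and the grey band runs from -0.85 to 0.78, the interquartile range of all 16580 tested genes. Rcor2 at 2.67 and Rcor3 at -1.51 lie farthest from 0, and the intervals of Rcor1 and Phf21a include 0.

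Within a library, the ratio of counts of a pair of related genes needs no scaling between libraries, and gene length cancels in its difference between cell types. Rcor2 had 0.277, 0.232, 0.101 and 0.328 times the counts of Rcor1 in the MEF libraries and 2.25, 1.73 and 2.0 times in the mESC libraries. The mean log2 ratio was -2.22 ± 0.76 in MEFs and 0.99 ± 0.19 in mESCs (SD, n = 4 and 3), a difference of 3.21 or 9.23-fold. An exact two-sided permutation test over all 35 assignments of the cell type labels gave p = 0.0286, the smallest this design allows. After Benjamini-Hochberg adjustment over the 6 pairs examined, this is 0.0571. No pair can pass the threshold after this adjustment on its own, so the miss is set by the design and the other pairs. Without the MEF library of 7312679 counts, the difference was 2.84. The ratio of Rcor3 to Rcor1 overlapped between the cell types, with a mean log2 ratio of 0.24 ± 0.89 in MEFs and -0.70 ± 0.38 in mESCs (difference -0.93, exact permutation p = 0.171, adjusted 0.257). The overlap came from the MEF library of 7312679 counts, whose ratio was 0.472, against 1.47, 1.6 and 1.74 in the other MEF libraries and 0.834, 0.508 and 0.556 in the mESC libraries. Without it the difference was -1.37, at the smallest p of an exact permutation test on 3 and 3 libraries (0.1).

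**Figure D3:**
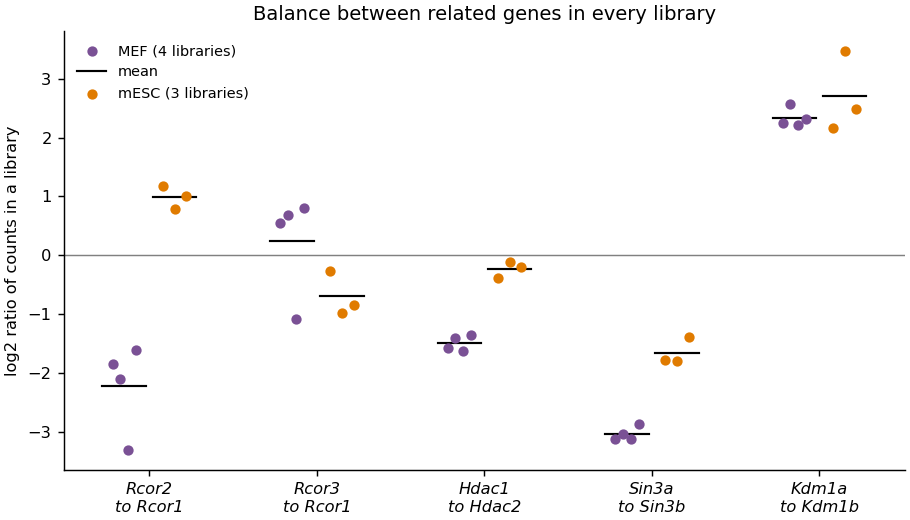
The log2 ratio of counts of 5 pairs of related genes in each of 4 MEF and 3 mESC libraries, with lines for the means. The cell types are separate for Rcor2 to Rcor1, Hdac1 to Hdac2 and Sin3a to Sin3b, and overlap for the other pairs; absolute ratios also carry gene length.

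Kdm1a, the demethylase that takes methyl groups off histone tails (chr4:136550540-136602723), was at 48.0, 46.5, 52.0 and 65.8 CPM in MEFs and at 77.3, 110 and 105 CPM in mESCs. All mESC libraries were above all MEF libraries, with a log2 fold change of 0.87 ± 0.186 (SE, edgeR adjusted p = 0.0027). Its relative Kdm1b had means of 10.5 ± 2.25 CPM in MEFs and 15.2 ± 4.66 CPM in mESCs (SD, n = 4 and 3) and did not pass (log2 fold change 0.53, edgeR adjusted p = 0.171), though it did without scaling beyond library totals (0.81, edgeR adjusted p = 0.0471). Exons of Kdm1b overlap antisense exons of Dek, with which it shares 8.16% of its 50-base sequences. The log2 ratio of Kdm1a to Kdm1b did not separate the cell types (difference 0.37, exact permutation p = 0.371, adjusted 0.446), and without the mESC library of 8057985 counts the difference was -0.01.

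The deacetylases moved in opposite directions. Hdac1 (chr4:129516104-129542713) was at 81.5, 86.0, 94.7 and 83.2 CPM in MEFs and at 133, 151 and 153 CPM in mESCs. Its log2 fold change was 0.76 ± 0.138 (SE, edgeR adjusted p = 0.00106). Hdac2 (chr10:36974544-37001889) was at 243, 228, 295 and 213 CPM in MEFs and at 173, 164 and 176 CPM in mESCs, and its log2 fold change was -0.52 ± 0.147 (SE, edgeR adjusted p = 0.0137). Without scaling beyond library totals, Hdac2 no longer passed (log2 fold change -0.23, edgeR adjusted p = 0.2), whereas Hdac1 did. The ratio of Hdac1 to Hdac2 ran from 0.322 to 0.391 in the MEF libraries and from 0.769 to 0.922 in the mESC libraries, so that no library of one cell type reached the other. Its mean log2 value went from -1.49 ± 0.13 to -0.23 ± 0.13 (SD, n = 4 and 3), a 2.4-fold difference. This is at the smallest p of the exact permutation test (0.0286, adjusted 0.0571), and the same limit of the adjustment holds. Hdac1 is uncertain in part, because 37.8% of its 50-base sequences occur in other genes, 31.7% in the near copy Gm10093. Gm10093 itself was at 7.36 ± 3.94 CPM in MEFs and 8.96 ± 2.08 CPM in mESCs (SD, n = 4 and 3, edgeR adjusted p = 0.652).

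Sin3a, the scaffold of the second corepressor that REST recruits (chr9:57072040-57128366), had 30.8, 37.7, 31.7 and 39.1 CPM in MEFs and 78.9, 86.5 and 95.3 CPM in mESCs. The lowest mESC library was above the highest MEF library, and the log2 fold change was 1.32 ± 0.161 (SE, 95% interval 0.96 to 1.68, edgeR adjusted p = 6.7e-05). Its paralogue Sin3b had means of 287 ± 17.2 and 274 ± 26.2 CPM (SD, n = 4 and 3). For Sin3b, the log2 fold change was -0.06 (95% interval -0.35 to 0.22, edgeR adjusted p = 0.72) and turned to 0.22 without scaling beyond library totals. The counts of Sin3a were 0.114 to 0.137 times those of Sin3b in MEFs and 0.286 to 0.382 times in mESCs. This is a 2.61-fold difference at the smallest p the exact permutation test allows (0.0286, adjusted 0.0571). Exons of Sin3a overlap antisense exons of 2700012I20Rik and Man2c1os, and it shares 1.97% of its 50-base sequences with Man2c1os. The latter was at 1.02 ± 0.874 CPM in MEFs and 0.496 ± 0.304 CPM in mESCs (SD, n = 4 and 3).

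Hmg20b, the HMG-box subunit of the CoREST complex (chr10:81346048-81350480), was at 67.1, 102, 74.8 and 90.5 CPM in MEFs and at 39.5, 61.0 and 51.4 CPM in mESCs. Its log2 fold change was -0.72 ± 0.206 (SE, edgeR adjusted p = 0.0143). This call was lost without scaling beyond library totals (-0.45, edgeR adjusted p = 0.0941) and without the mESC library of 8193825 counts (-0.57, edgeR adjusted p = 0.0632). Phf21a, the PHD finger subunit that reads the histone tail left by the demethylase (chr2:92093117-92364666), was at 29.4, 49.6, 34.8 and 42.0 CPM in MEFs and at 30.1, 45.2 and 30.9 CPM in mESCs. The groups lay over each other, and the log2 fold change of -0.14 (95% interval -0.65 to 0.38, edgeR adjusted p = 0.669) became 0.14 without scaling beyond library totals.

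Further genes whose proteins work with CoREST or REST, together with Kdm1b, were examined in a list of 18, of which 15 could be tested. In mESCs, 3 were higher and 3 lower, or 40% of those tested, where 47.9% of all tested genes were called, and the median log2 fold change was 0.14. The CtBP corepressors went in opposite directions. Ctbp2 was at 40.7, 30.0, 51.8 and 28.5 CPM in MEFs and at 134, 125 and 108 CPM in mESCs (log2 fold change 1.70 ± 0.218, SE, edgeR adjusted p = 9.66e-05). Ctbp1 was at 57.4, 65.2, 67.1 and 64.7 CPM in MEFs and at 25.3, 17.7 and 19.0 CPM in mESCs (log2 fold change -1.62 ± 0.184, SE, edgeR adjusted p = 4.06e-05). Gse1, found in complexes with the demethylase, and Cdyl, which bridges REST to the methyltransferase G9a, were higher by 0.96 and 0.81 on the log2 scale. Neither call was firm: Gse1 missed the threshold without any of 4 single libraries (the MEF libraries of 11441278 and 6528643 counts and the mESC libraries of 8057985 and 7462710 counts, 0.81 to 1.0) and with no filter beyond 1 count (0.93, edgeR adjusted p = 0.0944), and Cdyl without the mESC library of 7462710 counts (0.65, edgeR adjusted p = 0.0502). Ehmt1, the gene of the related methyltransferase GLP, was lower (-0.93, edgeR adjusted p = 0.00902), though its libraries overlapped between the cell types. Ehmt2, the gene of G9a, did not pass (log2 fold change -0.07, edgeR adjusted p = 0.788) and is named after its values were seen. The remodeller ATPase Smarca4 and the demethylase Kdm5c, the most abundant genes of the list that did not pass, had log2 fold changes of 0.01 and -0.45 (edgeR adjusted p = 0.974 and 0.0647); Kdm5c did pass without the MEF library of 6528643 counts (-0.55) or without the mESC library of 8057985 counts (-0.57), and with at least 10 counts required throughout one cell type (-0.47, edgeR adjusted p = 0.049).

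The other subunits of the SIN3 complex gave 5 higher and 2 lower genes in mESCs among 14 tested of 15 listed, with a median log2 fold change of 0.17. The called share, 50%, was close to the 47.9% of all tested genes. Sinhcaf, a subunit that is also known from pluripotent cells, was at 77.1, 52.0, 66.9 and 25.0 CPM in MEFs and at 274, 438 and 203 CPM in mESCs. It had the highest log2 fold change of this list, 2.46 ± 0.358 (SE, edgeR adjusted p = 0.000233). Sap30 was at 12.4 ± 2.11 CPM in MEFs and 43.9 ± 14.7 CPM in mESCs (SD, n = 4 and 3, log2 fold change 1.82, edgeR adjusted p = 0.000176). The chromatin readers Ing2 and Arid4a were higher by 0.71 and 0.47 on the log2 scale, but Arid4a missed the threshold without the mESC library of 8057985 counts (0.45, edgeR adjusted p = 0.0593), without that of 7462710 counts (0.37, edgeR adjusted p = 0.102) and with no filter beyond 1 count (0.43, edgeR adjusted p = 0.0894). Rbbp7, a histone chaperone shared by several complexes, was lower (-0.39, edgeR adjusted p = 0.0267), and did not pass without scaling beyond library totals (-0.11) or without either of the same mESC libraries (-0.29 and -0.41). Brms1l was lower as well (-1.92, edgeR adjusted p = 0.0294), but 1 MEF library stood at 177 CPM and the other 3 between 29.1 and 30.8 CPM, against 16.8 to 19.6 CPM in mESCs. Without that library of 11441278 counts the log2 fold change of Brms1l was -0.76 (edgeR adjusted p = 0.0132), and without any 1 mESC library it did not pass (-2.0 to -1.88). Arid4b, which did not pass, had a log2 fold change of 0.11, and -0.003 without the MEF library of 7312679 counts. Leaving out the mESC library of 8057985 or of 7462710 counts reduced the number of called SIN3 genes from 7 to 3.

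**Figure D4:**
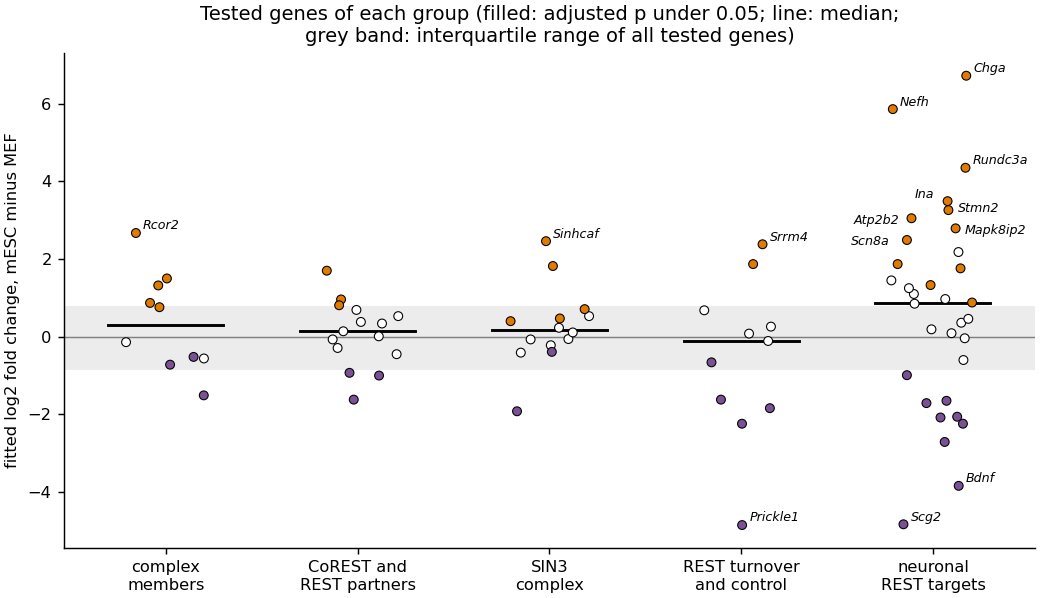
Fitted log2 fold change (mESC minus MEF) of every tested gene of the complex and of 4 gene lists, with 1 point for each gene, filled where edgeR's adjusted p is under 0.05, and a line for the median; the grey band is the interquartile range of all tested genes. The neuronal targets spread from -4.83 to 6.72 and the genes of REST turnover and control from -4.85 to 2.38. The members, their partners and the SIN3 genes lie between -1.92 and 2.67. Folds of genes near 0 counts in one cell type depend on the prior count.

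Among 11 genes that control the REST protein or its RNA, all of which could be tested, 5 were lower and 2 higher in mESCs, with a median log2 fold change of -0.11. This is 63.6% called, 45.5% lower and 18.2% higher, against 47.9%, 25.0% and 22.8% of all tested genes. The small phosphatases Ctdsp1, Ctdsp2 and Ctdspl, which dephosphorylate and stabilise REST, were all lower, by -1.62, -1.84 and -2.24 on the log2 scale (edgeR adjusted p = 0.0123, 0.000154 and 1.92e-05). Ctdspl, for instance, had 264, 267, 192 and 155 counts in MEFs and 59, 53 and 44 in mESCs. Prickle1, which helps to move REST to the nucleus, was at 70.3, 95.3, 71.3 and 80.3 CPM in MEFs and at 3.90, 1.36 and 2.95 CPM in mESCs (log2 fold change -4.85 ± 0.324, SE, edgeR adjusted p = 8.87e-07). Usp7, a deubiquitinase that protects REST from degradation, was higher in mESCs, at 66.4 ± 6.96 CPM in MEFs and 244 ± 29.2 CPM in mESCs (SD, n = 4 and 3, log2 fold change 1.87, edgeR adjusted p = 3.47e-06). Srrm4, the splicing factor that turns REST transcripts into a truncated neuronal form, had 26, 39, 5 and 16 counts in MEFs and 120, 159 and 90 in mESCs (log2 fold change 2.38, edgeR adjusted p = 0.00185). Gene counts do not distinguish the forms of the Rest transcript. Of the ubiquitin ligase parts, 2 are named after their values were seen. Cul1 was lower (-0.66, edgeR adjusted p = 0.00598). Btrc, which recognises REST, had 6.94 ± 2.88 CPM in MEFs and 11.1 ± 2.36 CPM in mESCs (SD, n = 4 and 3) and did not pass (edgeR adjusted p = 0.176). The abundant Skp1a did not pass either, with a log2 fold change of -0.11. Its sign is not settled, as it stood at 0.17 without scaling beyond library totals and at 0.01 without the MEF library of 11441278 counts.

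Genes that REST is known to silence outside neurons were followed in a list of 50. Of these, 17 had too few counts to test, and 10 had at most 3 counts, the floor, in every mESC library, 8 in every MEF library and 4 in all libraries. These shares are below those of all genes, but the 2 sets are unlike. All genes include antisense genes such as Gm26879, with 0 counts in every library, so the comparison says nothing about the targets as such. Of the 55484 genes listed, 38904 had too few counts to test. At most 3 counts were seen in every mESC library for 31763, in every MEF library for 32883 and in all libraries for 29164. Syp, the synaptic vesicle protein synaptophysin, chosen after its values were seen, had 1 or 2 counts in each library. Among the 33 tested genes, 12 were higher in mESCs and 9 lower (63.6% called, against 47.9% of all tested genes), and the median log2 fold change was 0.88. A gene that is low in one cell type enters the test through its counts in the other, so these shares are a description of the tested genes and not of the list. Stmn2, a regulator of microtubules in growing neurites and the most abundant of the higher genes, was at 68.9, 53.9, 57.6 and 81.3 CPM in MEFs and at 576, 654 and 644 CPM in mESCs (log2 fold change 3.26 ± 0.166, SE, edgeR adjusted p = 1.47e-07). It falls outside the rule for named genes and was chosen after its values were seen. Chga, which encodes the granule protein chromogranin A, had 1, 1, 0 and 0 counts in MEFs and 105, 54 and 58 in mESCs. For the neurofilament gene Nefh, the counts were 2, 0, 4 and 0 in MEFs and 76, 181 and 62 in mESCs. With so few MEF counts the fitted folds of Chga and Nefh depend on the prior count, and their adjusted p were 1.54e-05 and 0.000133 (edgeR). Rundc3a had 7, 5, 8 and 4 counts in MEFs and 137, 137 and 148 in mESCs (log2 fold change 4.35, edgeR adjusted p = 4.10e-06). The intermediate filament gene Ina, with 1, 9, 0 and 18 counts in MEFs and 86, 81 and 121 in mESCs, passed with a log2 fold change of 3.49 (edgeR adjusted p = 0.00594), which was 4.72 without the MEF library of 6528643 counts.

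The reverse was seen for the growth factor gene Bdnf, a classical REST target, with 90.4, 56.8, 66.3 and 40.2 CPM in MEFs and 4.44, 3.75 and 5.07 CPM in mESCs (log2 fold change -3.84 ± 0.309, SE, edgeR adjusted p = 3.29e-06). The complexin gene Cplx2 was lower by -2.24 on the log2 scale (104 ± 16.4 CPM in MEFs and 22.1 ± 3.56 CPM in mESCs, SD, n = 4 and 3, edgeR adjusted p = 6.35e-06). The secretogranin gene Scg2 had 18, 21, 3 and 35 counts in MEFs and 2, 0 and 0 in mESCs (edgeR adjusted p = 0.00578). Scg3 and the receptor subunit Grin2a did not pass, with log2 fold changes of 0.19 and 0.97. Grin2a passed without the MEF library of 6528643 counts (1.42, edgeR adjusted p = 0.0406), and Scg3 was at -0.03 without the mESC library of 8193825 counts.

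Markers of neural cells also differed between the cell types, and their part in the target values was not tested. The 11 neural markers summed to between 150 and 210 CPM in MEFs and between 104 and 136 CPM in mESCs. Most of the MEF sum was Gap43 alone, at 165, 160, 144 and 181 CPM in MEFs and 1.95, 4.43 and 0.59 CPM in mESCs. The sums therefore do not give the direction of the other markers. Of 9 tested, 5 were higher in mESCs and 2 lower, or 77.8%, where 47.9% of all tested genes were called. Above the floor were 9 of the 11 in every mESC library and 5 in every MEF library. The neurogenic factor Neurod1 had 1, 0, 0 and 1 counts in MEFs and 250, 134 and 285 in mESCs, and Olig2, of the oligodendrocyte lineage, had 2, 2, 1 and 0 in MEFs and 175, 242 and 258 in mESCs. Sox1, Rbfox3 and Elavl3 were also higher in mESCs, with log2 fold changes of 3.33, 2.79 and 3.20. Dcx, a defining marker of young neurons, was at 0 in every mESC library, and Gfap, of astrocytes, had 0 to 3 counts in any library. Gap43, of growing axons, was lower in mESCs, with 1721, 1335, 946 and 1137 counts in MEFs and 18, 39 and 5 in mESCs (edgeR adjusted p = 2.43e-06). Map2 was lower as well (log2 fold change -2.04), and Pax6 and Elavl4 did not pass. The 8 blood and endothelial markers summed to between 26.5 and 60.3 CPM in MEFs and between 57.4 and 65.2 CPM in mESCs. Of the 5 tested, 2 were higher in mESCs and 1 lower, or 60%, where 47.9% of all tested genes were called. Pecam1 and Cd68 were the higher ones (log2 fold changes 3.42 and 1.15) and Lyz2 the lower (-2.76). Pecam1 alone, at 22, 38.3 and 29.4 CPM, was a large part of the mESC sum, which therefore does not stand for the other markers. Csf1r and Kdr did not pass, and the macrophage marker Adgre1 was at 0 in every mESC library.

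The recognition sequence of REST was searched in promoter windows, to place the expression values beside the sequence the complex binds. The letters were those of the 20-base REST motif of the HOMER collection, and the windows ran from 250 bases before to 50 bases after each start in RefSeq's table for GRCm38.p6. Up to 4 mismatches were allowed on either strand. Of 32851 windows, 44 held a match, or 0.134%, and these belonged to 42 genes (0.155% of those scanned), of which 38 had a row in the count table. A match is a description of the letters and not a bound site. Sites of most of the 16 called genes with a match, such as Pbx4 and Sptbn4 with 3 mismatches, are not shown. The following 9 sites are the closest matches, with 2 mismatches, and those of Lhfpl5, Celsr3 and Robo2, picked after their values were seen. Each is 5′ to 3′ in the direction of the motif, with capitals for bases that fit the motif and 5 bases of flank on each side, while coordinates are those of the 20 bases of the motif.
Amer3: aacctGGAGCTGgCCgTGGTGCTGAcgcga
Fam163b: ggcgaGGAaCTGTCCcTGGTGCTGAcgctg
Fbll1: ttgagGtAGCTGTCCcTGGTGCTGActgga
Hrh3: cacgcGGCGCTGTCCgTGGTGCTGcccgcg
Lhx3: gggctGGCGCTGTCCgcGGTGCTGAaggag
Scamp5: ttgcaGGAGCTGTCCgTGGTGCTaAatatt
Lhfpl5: actctGGCGCTGgCCgcGGTGCTGAaacgc
Celsr3: acagaaGtGCTGcCCAcGGTGCTGAacgga
Robo2: tttagtGCtCTGTCCgTGGTGCTaAgggta

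The first 6 have 2 mismatches, Lhfpl5 has 3, and Celsr3 and Robo2 have 4. Their centres lie upstream of the start, between positions -8, counted from the start, for Amer3 (chr1:34579675-34579694), whose site runs over the start, and -182 for Fbll1 (chr11:35799057-35799076). The others are at chr2:27142561-27142580 (Fam163b), chr2:180104575-180104594 (Hrh3), chr2:26208272-26208291 (Lhx3), chr9:57468194-57468213 (Scamp5), chr17:28575641-28575660 (Lhfpl5), chr9:108825919-108825938 (Celsr3) and chr16:75447352-75447371 (Robo2). The motif reads on the minus strand of the genome for Fbll1, Hrh3 and Celsr3 and on the plus strand for the other 6. Windows of 8 complex genes were in the table (all but Rest and Hdac1), and none held a match at 4 mismatches or fewer, which says only that these letters are not in these windows.

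Of the 6 genes with the closest sites, 5 had too few counts to test, as had 38904 of all 55484 genes listed and 15 of the 38 genes with a match. Amer3 had 0 counts in every MEF library and 2, 1 and 1 in mESCs. The RNA-binding protein gene Fbll1 had 3 counts in 1 MEF library, 0 in the other 3, and 0, 1 and 7 in mESCs, and the homeobox gene Lhx3 had at most 3 counts in any library. Counts of Hrh3, a histamine receptor, were 2, 3, 0 and 1 in MEFs and 1, 15 and 0 in mESCs. Fam163b had 1, 2, 1 and 1 counts in MEFs and 35, 4 and 14 in mESCs, with no overlap. The vesicle protein gene Scamp5 was tested and did not pass (log2 fold change 0.25, edgeR adjusted p = 0.754), and its sign depended on single libraries, with -0.05 without the MEF library of 7312679 counts and -0.31 without the mESC library of 8193825 counts.

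Over all 38 genes with a match in the count table, 23 could be tested, and 9 were higher and 7 lower in mESCs (69.6% called, against 47.9% of all tested genes, median log2 fold change 0.14). The same limit on tested genes holds here. With at most 3 mismatches, 4 of 14 genes could be tested, of which 3 were higher in mESCs and none lower. In the tested genes with a match, both directions occurred. Chosen after its values were seen, Lhfpl5 had 1, 1, 0 and 0 counts in MEFs and 23, 65 and 25 in mESCs (edgeR adjusted p = 0.000201), and the pluripotency gene Zfp42, whose match lies 38 bases after its start, had 3, 3, 2 and 1 in MEFs and 377, 397 and 360 in mESCs (edgeR adjusted p = 3.58e-08). On the other side, the axon guidance receptor Robo2 had 107, 102, 61 and 131 counts in MEFs and 15, 11 and 7 in mESCs (log2 fold change -3.39, edgeR adjusted p = 0.000101), and was likewise chosen after its values were seen. Of the 50 neuronal targets, 3 are among the 38, namely Celsr3, Gria2 and Syn1. Celsr3, a cadherin of axon tracts, had 9, 6, 6 and 8 counts in MEFs and 35, 18 and 32 in mESCs (log2 fold change 1.76, edgeR adjusted p = 0.0137). Gria2 and Syn1 had at most 13 and 5 counts in any library and were not tested.

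**Figure D5:**
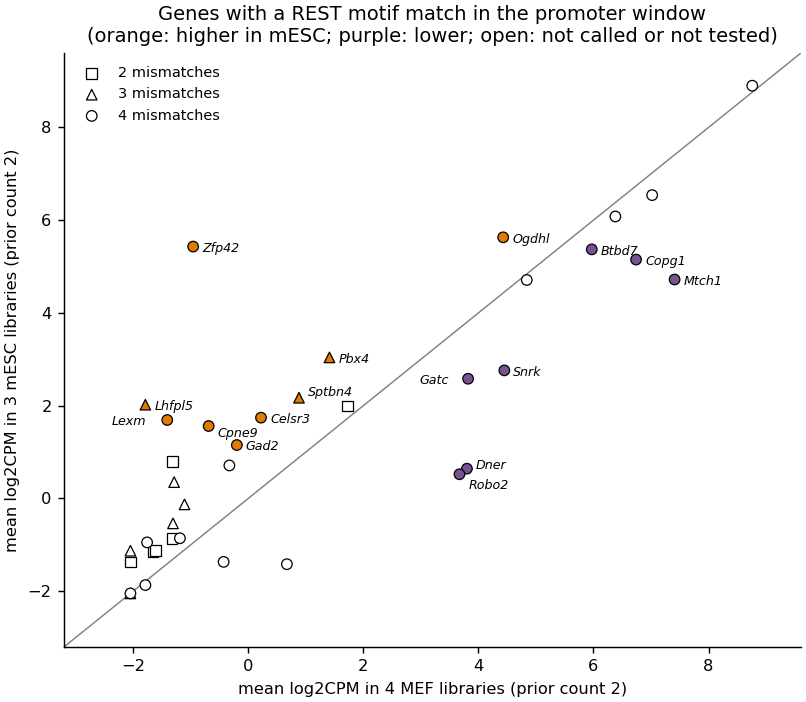
Mean log2CPM (prior count 2) in 4 MEF libraries against 3 mESC libraries for the 38 genes of the count table with a REST motif match in the promoter window, with symbols for the number of mismatches and a line of equal level. Zfp42 and Lhfpl5 lie above the line, Robo2, Dner and Mtch1 below it, and all but 1 of the genes with 2 mismatches sit at the low end of both axes.

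Finally, the genes whose log2CPM followed that of Rest or Rcor2 most closely over the 7 libraries were listed as a description, without a test. The libraries share their cell type and depth, and 611 genes reached a Pearson r over 0.95 with Rest and 1042 with Rcor2. Nearest to Rest were Jakmip1 (r = 0.9962), the cytokine signalling inhibitor Socs2, the proteasome activator Psme4, F2, which encodes prothrombin, and Acss1. These 5 had log2 fold changes between 1.56 and 4.12 (edgeR). Nearest to Rcor2 were Dop1a (r = 0.9990), Bcar3, Nipsnap1, the poly(A)-binding protein gene Pabpc1 and Chrna9, with log2 fold changes between 0.51 and 5.61 (edgeR).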

How the data were processed

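RNA-seq counts of 4 MEF libraries and 3 mESC libraries were used. Per the labels, libraries were 3′ biased and primed on poly(A), with molecular identifiers, but that protocol text names blood stem cells as its source, and that it holds for these libraries is not certain. The authors demultiplexed and trimmed the reads, mapped them with STAR (mm10), removed duplicates by molecular identifier with Je, and assigned unique alignments to exons with featureCounts. The deposited values are whole-number counts without normalization, and 0 value columns of samples stayed unused. Counting was by exon without a stated annotation release or strand setting (not given in the sources used here), so genes with antisense exons are uncertain. Where it holds, 3′ bias makes counts depend on the annotated ends.

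Totals ran from 6528643 to 11441278 counts, and the floor of 3 counts covers counting error only. The intervals come from the edgeR fit and also hold the spread between these libraries. Libraries of one cell type differed beyond sampling noise (chi-square of 15.6 to 31.1 per degree of freedom). Counts were fitted with edgeR 4.0.16 (limma 3.58.1, R 4.3.3), using TMM, filterByExpr and the quasi-likelihood test over 7 libraries, at a Benjamini-Hochberg adjusted p of 0.05. SEs were taken from the fold change and its F statistic. log2CPM used a prior count of 2. Ratios of gene pairs, with 0.5 counts added, were compared by the exact two-sided permutation test. Motif windows (RefSeq, GRCm38.p6) were read letter by letter with up to 4 mismatches. Shared 50-base sequences (GENCODE M21, GRCm38) were compared by exact letters. The code was tested on simulated data.

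The members and lists were chosen with earlier results of these data known. The genes named are the members, the other gene of each pair, for each list up to 4 called genes at either end of the fold change and the 2 most abundant that did not pass, motif genes with at most 2 mismatches, and the 5 genes nearest to Rest and to Rcor2. Others are marked as picked once their values were known or serve as marker or background values. Alternatives were DESeq2 1.42.0, no scaling beyond library totals, DESeq2's size factors in edgeR, no filter beyond 1 count, at least 10 counts throughout one cell type, a test against a fold change of 2, 2 counts added to ratios, at most 3 mismatches, and each library left out in turn. A few genes of the lists, and the pair with one of them, are counted but not reported here by name. The open chromatin data of the study were not analysed here.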

Additional observations from a re-analysis of the deposited data

Results flagged for a closer look

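Among 57 values examined for a single MEF library far from the other 3, 4 stood out, where chance gives about 1 in 20. Brms1l, a subunit of the SIN3 complex, was at 177 CPM in the MEF library of 11441278 counts and between 29.1 and 30.8 CPM in the others. The neuronal target Rundc3a was at 1.22 CPM in the MEF library of 7312679 counts and between 0.599 and 0.672 CPM in the others. Fbll1 was at 0.477 CPM in the MEF library of 6528643 counts, from 3 counts, and at 0 in the others. The log2 ratio of Rcor3 to Rcor1 was -1.08 in the MEF library of 7312679 counts and between 0.56 and 0.80 in the others.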

How the results depend on the processing

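Every member kept its direction in each alternative run, except Phf21a, which was at 0.14 without scaling beyond library totals. Of the members' log2 fold changes, 69 of 70 with 1 library left out and 53 of 60 under other settings kept direction and call. Without that scaling, Hdac2 (-0.23) and Hmg20b (-0.45) lost their calls, and Sin3b (0.22) and Skp1a (0.17) changed sign, none of these last passing. Against a fold change of 2, fewer genes pass by construction: 3991 of all genes, 4 members, 2 partners, 2 SIN3 genes and 9 genes with a promoter match, and Kdm1a (0.87), Hdac1 (0.76), Hdac2 (-0.52) and Hmg20b (-0.72) no longer passed. With at most 3 mismatches, 3 promoter genes were called. Leaving out 1 library gave -0.88 to -0.57 for Hmg20b, 3 to 8 called SIN3 genes, 10 to 16 called genes with a promoter match (10 without the mESC library of 7462710 counts), and log2 ratio differences of 2.84 to 3.41 for Rcor2 to Rcor1, 1.21 to 1.34 for Hdac1 to Hdac2, 1.25 to 1.46 for Sin3a to Sin3b and -0.01 to 0.65 for Kdm1a to Kdm1b. With 1 library fewer the exact test cannot go below 0.1 (MEF) or 0.0667 (mESC), so those ratios miss 0.05 by construction. Other genes that did not pass changed sign: Smarca4 was at -0.03 without a filter, at -0.02 with the stricter one and at -0.03 to -0.01 without single libraries, and Arid4b (-0.003 to 0.19), Skp1a (up to 0.01), Scg3 (-0.03 to 0.39) and Scamp5 (-0.31 to 0.59) changed sign without single libraries. The cause was not tested for changes not said to follow from construction. No paired analysis was possible because the count columns carry no number that is known to match a sample's, so the fit with a replicate block was not run. The filter on low counts left 17 neuronal targets and 15 promoter genes untested, some of them with no overlap between the cell types, such as Fam163b.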
